A study of Mus musculus with 4 samples.

Results

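The 10 enzymes described here carry out threonine breakdown (*Tdh*, *Gcat*), serine synthesis (*Phgdh*, *Psat1*, *Psph*), glycine cleavage (*Gldc*), the exchange of serine and glycine (*Shmt1*, *Shmt2*) and the interconversion of folate-bound one-carbon units (*Mthfd1*, *Mthfd1l*). They were chosen by gene symbol, and all 10 were found, each on 1 of the 19645 features of the deposited tables. The row of *Gcat* also carries the symbol of its neighbour *Galr3*, so its value is that of both genes. RNA was profiled in 2 libraries of wild-type (WT) mouse embryonic stem cells (ESCs) and 2 libraries of *Bmal1* KO ESCs, undifferentiated cells kept on gelatin in a medium with serum, leukaemia inhibitory factor and nonessential amino acids. The KO cells are 1 clone in which CRISPR-Cas9 removed bases of the gene *Arntl*, which encodes the clock factor BMAL1, and the comparison asks which transcripts differ when that protein is absent. The study calls the replicates biological, but neither it nor the labels name separate cultures or clones, so p-values measure the spread between these libraries, which may be technical, and loss of BMAL1 cannot be told apart from other differences between the clone and the WT cells. As an example of such a difference, the Y-linked *Ddx3y* had 0.235 and 0.403 FPKM in the WT libraries and 16.4 and 20.6 FPKM in the KO libraries. Pairs of values are given in the order of replicates 1 and 2 throughout.

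Mouse ESCs are known for breaking down threonine: TDH, a mitochondrial dehydrogenase, oxidizes it, and GCAT splits the product into glycine and acetyl-CoA. The glycine cleavage system, whose decarboxylase is GLDC, passes a carbon of glycine to folate, and serine gives up a carbon to folate through SHMT2 in mitochondria and SHMT1 in the cytosol. Serine itself is made from a glycolytic intermediate by PHGDH, PSAT1 and PSPH in turn. MTHFD1L in mitochondria and MTHFD1 in the cytosol handle formate, through which the carbon reaches purines, thymidylate and the methionine cycle.

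The values are FPKM (sequenced fragments of a gene divided by transcript length and by the library's mapped fragments), which are per length and can be set side by side between genes. Read numbers could not be recovered from them, so no counting error is given. The lowest values, taken from features below 0.05 FPKM in both libraries of a pair, placed the depth of the other 3 libraries at 91.8% to 94.6% of that of WT replicate 1. Of the summed FPKM, features that carry no symbol held 26.8% and 37.3% in WT, and 19.0% and 18.1% in KO. The targeted gene *Arntl* had 6.05 and 6.29 FPKM in WT and 5.95 and 5.92 FPKM in KO, so the level of this transcript did not separate the genotypes by more than the replicates (log2 fold change -0.06, 95% interval -0.31 to 0.19, adjusted p = 0.750 from limma). KO was compared with WT by limma on log2(FPKM + 0.1) for the 12990 features whose mean reached 0.5 FPKM, and a gene passed at a Benjamini-Hochberg adjusted p under 0.05 over all of them. All 10 enzymes met the minimum.

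The 10 enzymes were among the strongly transcribed genes of these ESCs, at the 86.5 to 98.3 percentile of features with a symbol. Averaged over the 4 libraries, *Tdh* stood highest at 304 FPKM, followed by *Psat1* at 254, *Shmt2* at 156, *Phgdh* at 155, *Mthfd1* at 108, *Gldc* at 99.5, *Shmt1* at 85.8, *Mthfd1l* at 54.3, *Psph* at 51.1 and the row of *Gcat* at 38.8. The libraries of *Shmt2* and *Phgdh* overlapped in both genotypes. Those of *Mthfd1* and *Gldc* overlapped in WT, and those of *Gldc* and *Shmt1* overlapped in KO. All other neighbours in the order were separated in both genotypes, but *Tdh* and *Psat1* changed places: both WT libraries had more *Psat1* than *Tdh*, and both KO libraries had more *Tdh* than *Psat1*.

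**Figure D1:**
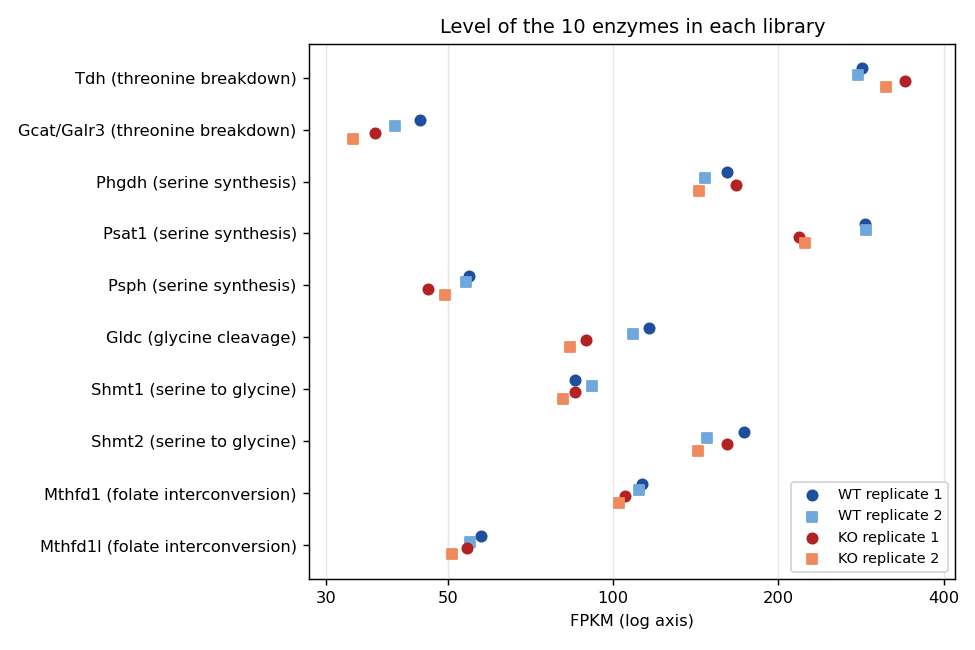
FPKM (log axis) of the 10 enzymes, 1 point per library, with WT in blue and *Bmal1* KO in red and orange. *Psat1*, *Gldc*, the row of *Gcat*, *Psph*, *Shmt1*, *Mthfd1* and *Mthfd1l* lie lower in both KO libraries than in both WT libraries. *Tdh* lies higher, and the points of *Phgdh* and *Shmt2* overlap.

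In *Bmal1* KO ESCs the transcripts of *Psat1*, the aminotransferase of serine synthesis, and *Gldc*, the decarboxylase of glycine cleavage, fell to 0.768 and 0.769 of their WT level. No enzyme of the 10 passed the test in the other direction. The other 8 missed the threshold, with log2 fold changes from -0.27 for the row of *Gcat* to 0.22 for *Tdh*. None passed with a change over 2-fold (4.14% of all tested features did), and the median log2 fold change of the 10 was -0.10, against -0.02 over all tested features and -0.07 over the 3055 features whose mean reached 30 FPKM, a level that all 10 exceed and that was chosen after their values were seen. Thus 2 of 10 were lower and 0 of 10 higher at an adjusted p under 0.05, where 5.60% of all tested features were lower and 6.85% higher, or 6.12% and 5.47% of those with at least 30 FPKM. Both KO libraries lay below both WT libraries for 7 of the 10 and above them for 1, where the shares were 31.7% and 27.0% of all tested features and 39.5% and 19.5% of those with at least 30 FPKM. In such bulk RNA, fewer cells that express a gene and less RNA per cell cannot be told apart.

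*Tdh* (ENSMUSG00000021953.14) lies on the minus strand of chromosome 14 of GRCm38 from 63492347 to 63509092. Its level was 283 and 279 FPKM in WT, and 340.0 and 314 FPKM in KO. Both KO libraries were above both WT libraries, but the KO libraries differed from each other by nearly as much as the lower of them differed from the higher WT library. The log2 fold change was 0.22 (SE, the standard error, 0.08, 95% interval 0.03 to 0.40, adjusted p = 0.127 from limma). With quantile normalization *Tdh* passed, at 0.33 (adjusted p = 0.0468 from limma). The antisense gene *Gm17232* overlaps *Tdh*, and without stated strand the reads of the pair cannot be told apart.

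The partner of TDH moved the other way in value. The row of *Gcat* and *Galr3* on chromosome 15, from 79030831 to 79043558, had 44.5 and 40.1 FPKM in WT and 36.8 and 33.6 in KO, with both KO libraries below both WT libraries. Its log2 fold change was -0.27 (SE 0.09, 95% interval -0.49 to -0.04, adjusted p = 0.124 from limma). The annotation places *Gcat* from 79030874 to 79038353 and *Galr3*, the gene of a galanin receptor, downstream of it on the same strand, and the table gives no separate value for either.

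Of the 3 serine synthesis enzymes, *Psat1* fell. *Psat1* (ENSMUSG00000024640.9, minus strand of chromosome 19 from 15904678 to 15947337) had 287 and 288 FPKM in WT and 218 and 224 in KO, so that replicates differed little and the genotypes were well apart. The means were 288 ± 1.00 in WT and 221 ± 3.91 in KO (SD, n = 2). The log2 fold change was -0.38 (SE 0.07, 95% interval -0.55 to -0.21, adjusted p = 0.0236 from limma). Its adjusted p was 0.0808, 0.0544 and 0.0524 when KO replicate 1, KO replicate 2 or WT replicate 2 was left out, 0.0617 with quantile normalization and 0.0750 without a variance trend in limma, at log2 fold changes from -0.40 to -0.29 across all settings. The processed pseudogene *Gm3329* overlaps the locus on the opposite strand, as *Rpl31-ps20* overlaps that of *Gldc*.

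*Phgdh*, which commits the glycolytic intermediate to serine, did not share that fall in value. It lies on the minus strand of chromosome 3 from 98313170 to 98339990 (ENSMUSG00000053398.11) and had 161 and 147 FPKM in WT and 168 and 144 in KO, with overlapping genotypes. Its log2 fold change was 0.01 (95% interval -0.24 to 0.26, adjusted p = 0.965 from limma). The estimate of -0.38 for *Psat1* lies outside that interval, but the interval of *Psat1*, -0.55 to -0.21, overlaps it. A difference between the changes of these genes was not tested. *Psph*, the phosphatase of the last step, is on the minus strand of chromosome 5 from 129765558 to 129787449 (ENSMUSG00000029446.14). It had 54.6 and 54.1 FPKM in WT and 46.1 and 49.5 in KO, separated groups with a log2 fold change of -0.19 (SE 0.08, 95% interval -0.37 to 0.00, adjusted p = 0.172 from limma). Summed over the 3 enzymes, the FPKM was 503 and 490 in WT and 432 and 417 in KO.

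*Gldc* (ENSMUSG00000024827.10, minus strand of chromosome 19 from 30098447 to 30175429) had 116 and 109 FPKM in WT and 89.4 and 83.5 in KO. Both KO libraries were below both WT libraries by more than the replicates differed. The means were 112 ± 5.17 in WT and 86.5 ± 4.21 in KO (SD, n = 2). The log2 fold change was -0.38 (SE 0.08, 95% interval -0.57 to -0.19, adjusted p = 0.0338 from limma). The adjusted p was 0.113 without KO replicate 2 and 0.0954 without WT replicate 1, and between 0.0574 and 0.0946 with quantile normalization, with no filter on low values, after rescaling to features with a symbol and without a variance trend. The remaining subunits of the glycine cleavage system, *Amt*, *Gcsh* and *Dld*, did not pass. The row of *Amt* also carries the symbol of *Nicn1*, so its value is that of both genes. *Gcsh*, which carries the aminomethyl group, had 135 and 148 FPKM in WT and 109 and 119 in KO, a log2 fold change of -0.31 (95% interval -0.52 to -0.10, adjusted p = 0.0748 from limma).

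The serine hydroxymethyltransferases differed little between the genotypes. Mitochondrial *Shmt2* (ENSMUSG00000025403.5, minus strand of chromosome 10 from 127517123 to 127522444) had 173 and 148 FPKM in WT and 162 and 143 in KO, with overlapping groups. Its log2 fold change was -0.08 (SE 0.11, 95% interval -0.34 to 0.19, adjusted p = 0.672 from limma). Cytosolic *Shmt1* (ENSMUSG00000020534.14, minus strand of chromosome 11 from 60788104 to 60811718) had 85.2 and 91.5 FPKM in WT and 85.1 and 81.2 in KO. The lower WT and the higher KO library were nearly equal, and the log2 fold change was -0.09 (SE 0.08, 95% interval -0.28 to 0.10, adjusted p = 0.497 from limma). The tables give *Shmt1* the same coordinates as *Smcr8* and *Top3a*, and *Shmt2* the same as *Ndufa4l2*, so reads of overlapping ends could be split between these features.

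The paired folate enzymes behaved alike in value. *Mthfd1*, the cytosolic trifunctional enzyme (ENSMUSG00000021048.7, plus strand of chromosome 12 from 76255298 to 76319803), had 113 and 111 FPKM in WT and 105 and 102 in KO. Its log2 fold change was -0.11 (SE 0.07, 95% interval -0.28 to 0.06, adjusted p = 0.340 from limma). *Mthfd1l*, the mitochondrial formate-producing enzyme (ENSMUSG00000040675.17, plus strand of chromosome 10 from 3973118 to 4167081), had 57.4 and 54.8 FPKM in WT and 54.3 and 50.9 in KO. Its log2 fold change was -0.09 (SE 0.08, 95% interval -0.28 to 0.10, adjusted p = 0.471 from limma). Both genes were lower in both KO libraries than in both WT libraries, by more than the replicates differed for *Mthfd1* and by less for *Mthfd1l*. The intervals of *Shmt1*, *Shmt2*, *Mthfd1* and *Mthfd1l* leave out a 2-fold change but not smaller changes either way. Their lower ends were -0.34 for *Shmt2* and -0.28 for *Shmt1*, *Mthfd1* and *Mthfd1l*, and their upper ends ran from 0.06 to 0.19.

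**Figure D2:**
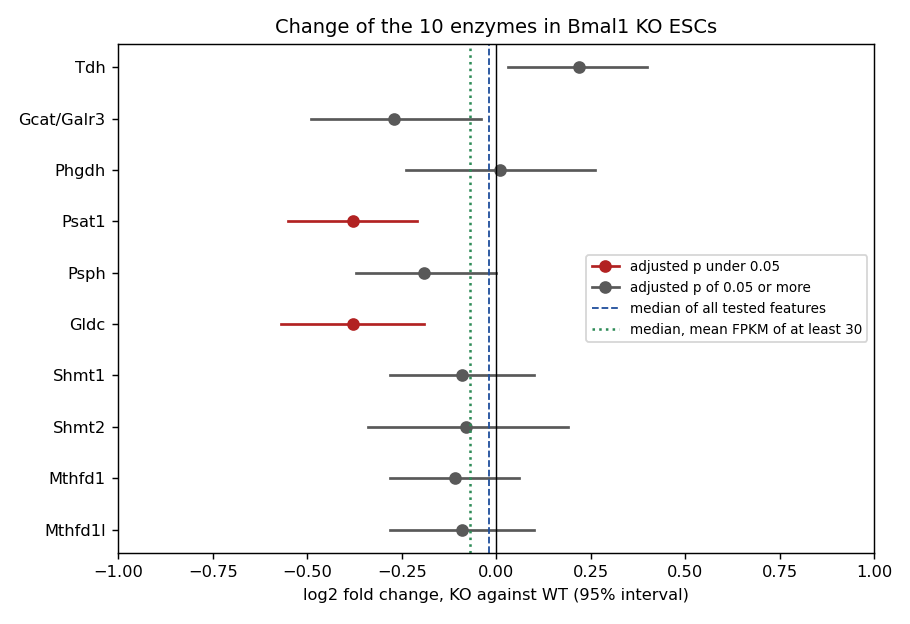
Log2 fold change of KO against WT for the 10 enzymes with 95% intervals from limma; red marks an adjusted p under 0.05, and vertical lines mark 0 and the medians of all tested features and of those with a mean of at least 30 FPKM. *Psat1* and *Gldc* stand at -0.38. The intervals of *Phgdh*, *Shmt1*, *Shmt2*, *Mthfd1* and *Mthfd1l* span 0, and that of *Psph* just reaches it.

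Set against each other within a library, partner enzymes show where the balance of transcripts differed. The FPKM ratio of mitochondrial *Shmt2* to cytosolic *Shmt1* was 2.03 and 1.62 in WT and 1.898 and 1.76 in KO, and that of *Mthfd1l* to *Mthfd1* was 0.508 and 0.493 in WT and 0.516 and 0.497 in KO. In neither pair did the genotypes separate. The ratios that follow were chosen after the values were seen and are given as descriptions. *Tdh* to the row of *Gcat* was 6.36 and 6.96 in WT and 9.24 and 9.36 in KO. *Tdh* to *Gldc* was 2.44 and 2.57 in WT and 3.80 and 3.77 in KO. *Phgdh* to *Psat1* was 0.562 and 0.511 in WT and 0.768 and 0.642 in KO. Each of these 3 ratios was higher in both KO libraries than in both WT libraries. The summed FPKM of the 5 mitochondrial enzymes (*Tdh*, the row of *Gcat*, *Gldc*, *Shmt2* and *Mthfd1l*) was 674 and 632 in WT and 682 and 625 in KO. That of the 5 cytosolic enzymes was 701 and 692 in WT and 622 and 600.2 in KO. Such sums follow their largest members, *Tdh* and *Psat1*. Gene by gene the compartments were alike: the median log2 fold change was -0.09 for the mitochondrial and -0.11 for the cytosolic enzymes, and 1 of 5 passed downward in each.

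**Figure D3:**
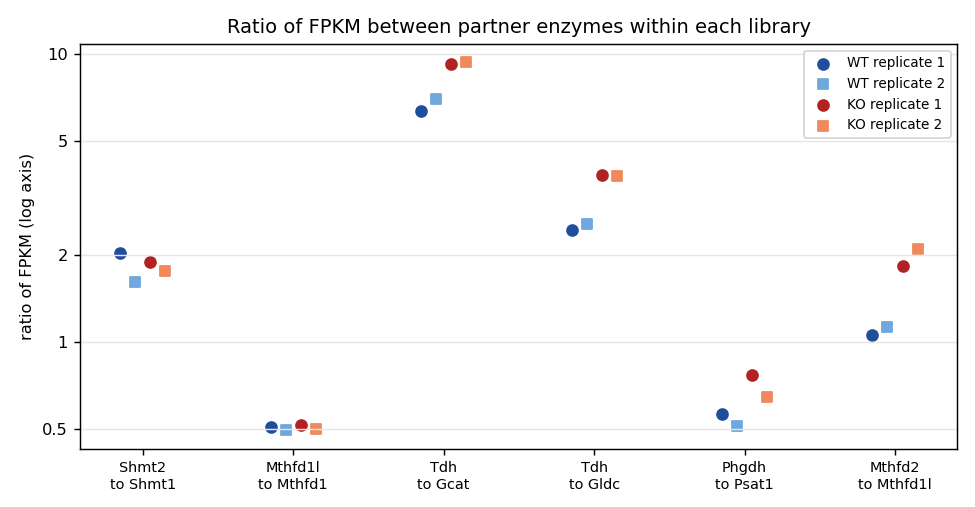
Ratio of FPKM (log axis) between partner enzymes within each library, with WT in blue and KO in red and orange. The ratios of *Tdh* to *Gcat* and *Gldc*, of *Phgdh* to *Psat1* and of *Mthfd2* to *Mthfd1l*, all chosen after the values were seen, are higher in both KO libraries. Those of *Shmt2* to *Shmt1* and *Mthfd1l* to *Mthfd1*, which were planned, overlap.

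The promoter sequences of the 2 enzymes that fell and of *Gcat* are shown because BMAL1 is known to bind the E-box CACGTG. The 250 bases before the start of transcription come from RefSeq (GRCm38.p6), and for *Gcat* the first 20 transcribed bases are included. They are written 5′ to 3′ on the strand of the gene in lower case, with an E-box in capitals. *Psat1* lies at chr19:15925060-15925309, *Gldc* at chr19:30175442-30175691 and *Gcat* at chr15:79030624-79030893. The window shown for *Psat1* is 1 of 2 for that gene. It lies directly before the measured feature, which ends at 15925059, and inside the longer annotated span given above.
Psat1: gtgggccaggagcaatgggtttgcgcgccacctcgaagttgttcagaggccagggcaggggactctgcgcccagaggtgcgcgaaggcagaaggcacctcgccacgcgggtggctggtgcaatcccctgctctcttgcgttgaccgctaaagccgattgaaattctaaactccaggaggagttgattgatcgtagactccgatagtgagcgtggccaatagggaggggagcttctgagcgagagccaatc
Gldc: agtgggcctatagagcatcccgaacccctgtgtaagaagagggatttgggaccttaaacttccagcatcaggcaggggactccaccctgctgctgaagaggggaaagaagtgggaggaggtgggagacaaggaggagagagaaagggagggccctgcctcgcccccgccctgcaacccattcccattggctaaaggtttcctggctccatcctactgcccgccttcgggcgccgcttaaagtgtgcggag
Gcat: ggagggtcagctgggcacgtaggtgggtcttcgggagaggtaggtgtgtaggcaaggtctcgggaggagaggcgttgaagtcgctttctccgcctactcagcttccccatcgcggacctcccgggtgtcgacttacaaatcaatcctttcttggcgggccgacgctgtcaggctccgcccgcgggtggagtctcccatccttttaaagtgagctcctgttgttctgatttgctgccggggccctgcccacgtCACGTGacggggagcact
An E-box was found in the window of 1 of the 9 enzymes with an entry, *Gcat*, where it begins at transcribed base 3. *Tdh* had no entry. CACGTG, which reads the same on both strands, occurred in 7.15% of 32851 windows of 250 bases before and 50 after a start. The letters TGATGNAA, part of the element through which the amino acid response factor ATF4 acts, searched on both strands, occurred in 3.97% of all windows and in 0 of the 10 windows of these enzymes. A match is a description of letters and not a bound site.

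The other genes of the pathway were taken from a list of 50 symbols, of which 49 had a row and 41 were tested. Of these, 3 rose (*Mthfd2l*, *Mthfd2* and *Mat2a*) and 6 fell (*Gnmt*, *Cbs*, *Ahcy*, *Sptlc1*, *Gart* and *Sfxn1*), or 7.32% and 14.6%, beside the 6.85% and 5.60% of all tested features. The median log2 fold change of the 41 was -0.10. Past 2-fold were *Mthfd2l* upward and *Gnmt* downward, where 2.72% of all tested features passed upward and 1.42% downward, and 4.14% in either direction. None of the 6 tested genes of folate transport and retention passed, among them the folate receptor *Folr1* and the carrier *Slc19a1*.

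Both genes of a mitochondrial methylene-folate dehydrogenase rose, beside *Mthfd1l*, which acts in the same compartment and did not pass. *Mthfd2l*, a second form of the enzyme, had 1.47 and 1.57 FPKM in WT and 4.16 and 4.47 in KO, a log2 fold change of 1.45 (SE 0.14, adjusted p = 0.00527 from limma). *Mthfd2*, the form of embryonic and dividing cells, had 60.5 and 61.9 FPKM in WT and 99.8 and 107 in KO, a log2 fold change of 0.76 (SE 0.08, adjusted p = 0.00554). The KO libraries were far above the WT libraries for both, although *Mthfd2l* remained at a low level. The FPKM ratio of *Mthfd2* to *Mthfd1l*, also chosen after the values were seen, was 1.05 and 1.13 in WT and 1.84 and 2.11 in KO. Both passed in all 14 alternative settings.

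In the methionine cycle, *Mat2a*, which makes S-adenosylmethionine, rose, and 2 enzymes that act on its products or use it fell. *Mat2a*, which shares its coordinates in the tables with the transcript *Particl*, had 136 and 139 FPKM in WT and 185 and 189 in KO, a log2 fold change of 0.44 (SE 0.07, adjusted p = 0.0156 from limma). *Ahcy*, which hydrolyses S-adenosylhomocysteine, had 182 and 164 FPKM in WT and 123 in both KO libraries, a log2 fold change of -0.49 (SE 0.08, adjusted p = 0.0181). *Gnmt*, a glycine methyltransferase, had 2.23 and 3.06 FPKM in WT and 1.34 and 1.15 in KO, a log2 fold change of -1.02 (SE 0.21, adjusted p = 0.0344). The adjusted p of *Gnmt* was 0.0553 without WT replicate 2 and its log2 fold change then -0.80. *Cbs*, which condenses serine with homocysteine in transsulfuration, had 17.6 and 16.3 FPKM in WT and 11.4 and 10.4 in KO, a log2 fold change of -0.63 (SE 0.10, adjusted p = 0.0151), and its partner *Cth* did not pass. An E-box was found in 4 of the 47 RefSeq windows of the list, which cover 39 genes, beside 7.15% of all windows. These were the windows of *Cbs* and of *Atic*, *Paics* and *Tyms*, which did not pass. A part of the E-box in the change of *Cbs* was not tested.

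Among genes that consume serine or one-carbon units, *Gart*, which uses formyl-folate in purine synthesis, had 255 and 252 FPKM in WT and 194 and 190.3 in KO, a log2 fold change of -0.40 (SE 0.07, adjusted p = 0.0206 from limma). The other 7 tested genes of purine and thymidylate synthesis did not pass. *Sptlc1*, a subunit of the palmitoyltransferase that joins serine to a fatty acid, had 22.6 and 21.8 FPKM in WT and 16.9 and 15.5 in KO, a log2 fold change of -0.45 (SE 0.09, adjusted p = 0.0286). *Sfxn1*, the mitochondrial serine carrier, named here after its values were seen, had 44.5 and 44.5 FPKM in WT and 33.2 and 35.2 in KO, a log2 fold change of -0.38 (SE 0.08, adjusted p = 0.0308). The groups were separated for all 3 genes. Leaving out KO replicate 2 gave adjusted p = 0.0642 for *Gart*, 0.0893 for *Sptlc1* and 0.0520 for *Sfxn1*. *Sptlc1* also reached 0.0534 without WT replicate 1, and *Sfxn1* did not pass when any 1 of the 4 libraries was left out, with adjusted p from 0.0520 to 0.119.

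**Figure D4:**
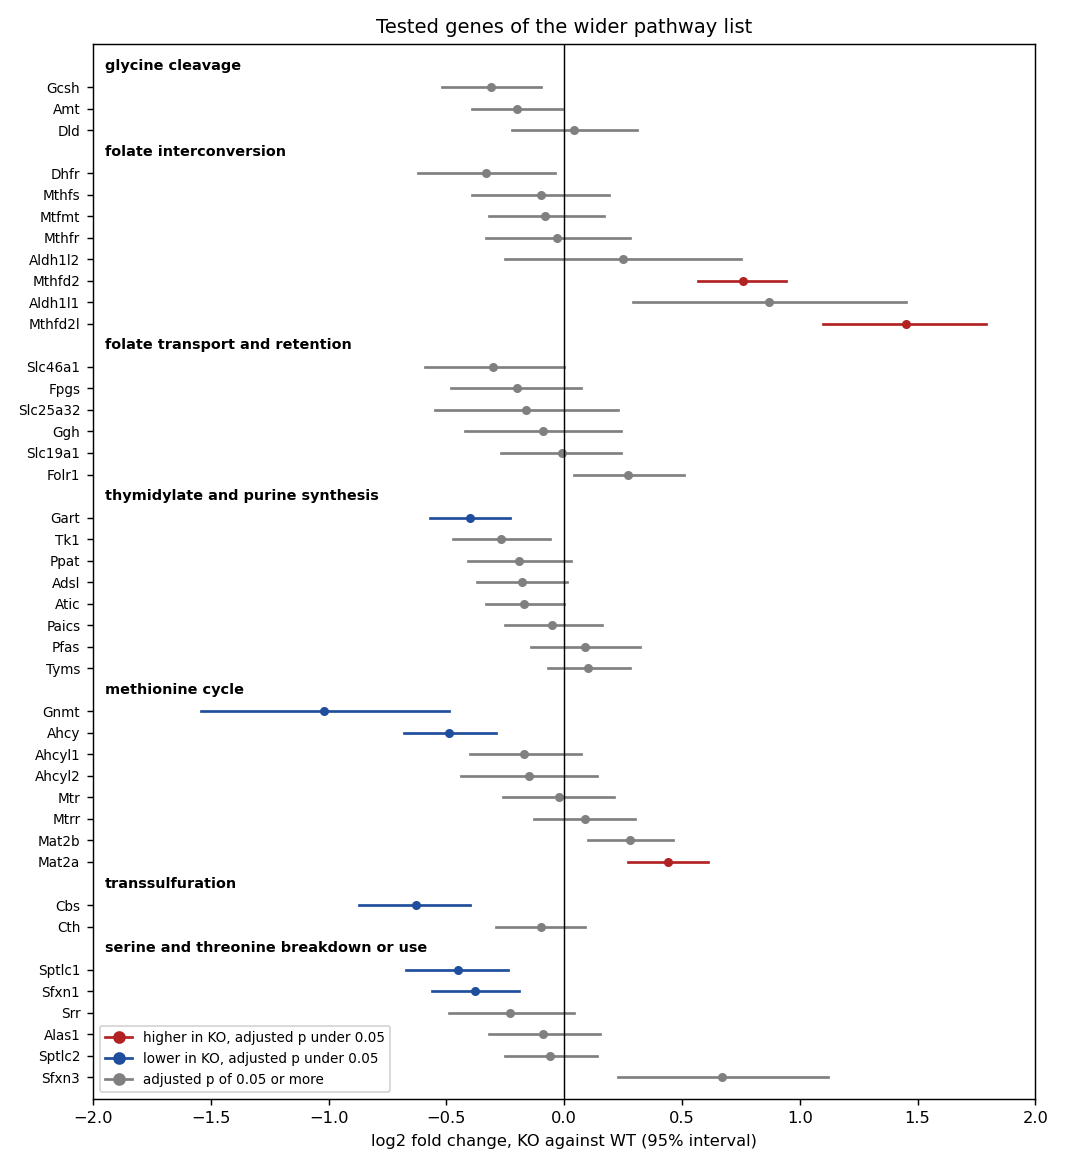
Log2 fold change of KO against WT with 95% intervals from limma for the 41 tested genes of the wider pathway list, grouped by role. Red marks the 3 genes that rose, blue the 6 that fell and grey the 32 that did not pass.

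Of the 3 genes that rose, *Mthfd2* and *Mat2a* lie on chromosome 6 in the stretch from *Eif2ak3* to *Gata2* (70844522 to 88207032), whose limits were chosen with its values known. In it 97 of 102 tested features with a symbol were higher in KO and 78 passed upward, or 76.5%, beside 6.5% of all other tested features with a symbol. The median log2 fold change of the stretch was 0.88, and 0.76 for *Mthfd2* and 0.44 for *Mat2a* ranked 69th and 91st of the 102 from the top. Both thus rose less than most of their neighbours. Among the 20 tested features nearest to *Mthfd2* the median was 0.95, and near *Mat2a* it was 0.89. The part of that stretch in their change was not tested. *Mthfd2l*, on chromosome 5, had neighbours with a median of -0.17, and 0 of the 20 passed upward.

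None of the 10 enzymes lies on chromosome 6, and the median log2 fold changes of the up to 20 tested features nearest to each ranged from -0.18 for *Mthfd1* to 0.08 for *Tdh*. The 20 features nearest to *Tdh* held 4 that rose and 0 that fell. Over the other 416 tested features of chromosome 14, these 20 included, 30 rose and 19 fell. Of all tested features 6.85% rose and 5.60% fell. *Psat1* and *Gldc* lie apart on chromosome 19. Of the 20 features nearest to *Psat1*, 11 were higher in KO and 0 fell, and of those nearest to *Gldc*, 10 were higher and 2 fell. Over the other 407 tested features of chromosome 19 the median was -0.02, with 26 that rose and 21 that fell.

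**Figure D5:**
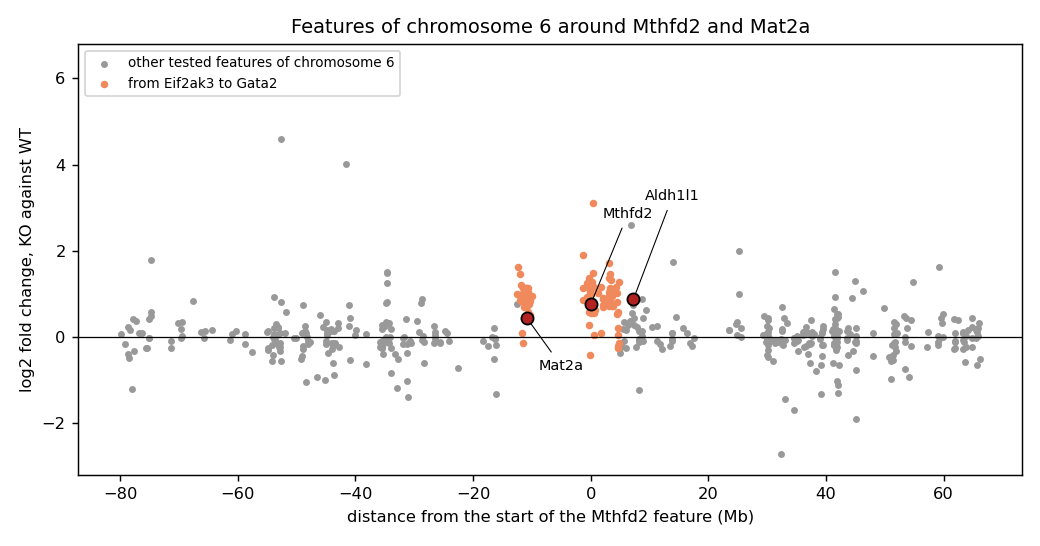
Log2 fold change of KO against WT for the tested features of chromosome 6 with a symbol, by distance in Mb from the start of *Mthfd2*. Features from *Eif2ak3* to *Gata2* are orange, most of them above 0, and *Mthfd2* (0.76) and *Mat2a* (0.44) lie in the lower part of that band, with *Aldh1l1* outside it at 0.87 (adjusted p = 0.0699 from limma).

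The cells carried the markers of ESCs in both genotypes. All 10 listed markers, among them *Pou5f1* and *Nanog*, passed the minimum, and their summed FPKM was 6980 to 7163 in WT and 6391 to 6825 in KO. The largest part of that sum is *Dppa5a*, with 2976 and 2950 FPKM in WT and 3045 and 2881 in KO. Of the 10 markers 1 rose (*Tfcp2l1*) and 3 fell (*Klf4*, *Tdgf1* and *Utf1*), where 6.85% of all tested features rose and 5.60% fell. Both KO libraries lay below both WT libraries for these 3 and for *Nanog*, *Sox2* and *Zfp42*, and above them for *Tfcp2l1* and *Esrrb*. The shares of all tested features were 31.7% below and 27.0% above. Of 5 neural markers 3 rose (*Sox1*, *Pax6* and *Neurod1*) and *Tubb3* fell. The summed FPKM of the 5, 127 to 133 in WT and 88.1 to 95.01 in KO, is mostly that of *Tubb3*, which had 130.4 and 124 FPKM in WT and 82.5 and 74.0 in KO, while *Sox1* had 1.32 and 1.39 in WT and 6.91 and 7.61 in KO. The mesoderm list summed to 2.62 and 2.66 FPKM in WT and 1.41 and 1.72 in KO. Its 1 tested marker, *Eomes*, made up most of the WT sum and fell from 2.21 and 2.25 FPKM to 0.463 and 0.775. The untested *T*, *Mesp1* and *Kdr*, each below 0.5 FPKM in every library, were higher in both KO libraries than in both WT libraries, and *Mixl1* overlapped. *T* had 0.0227 and 0 FPKM in WT and 0.174 and 0.0233 in KO, so its nearest libraries were almost equal. The fibroblast list summed to 2.23 and 1.91 FPKM in WT and 3.31 and 2.66 in KO. The endoderm list summed to 0.88 and 0.99 in WT and 1.18 and 1.11 in KO. Each had 1 tested marker, which did not pass. For fibroblasts it was *Thy1*, with 1.69 and 1.54 FPKM in WT and 2.725 and 2.11 in KO. For endoderm it was *Gata4*, lower in both KO libraries than in both WT libraries. The untested markers were below 0.5 FPKM in every library. Of these, *Pdgfrb* (fibroblast), *Dab2* and *Foxa2* (endoderm) were higher in both KO libraries than in both WT libraries, and the others overlapped. Such a separation upward was seen for 27.0% of all tested features. The part of these marker changes in the values of the 10 enzymes was not tested.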

How the data were processed

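Ribosomal RNA-depleted RNA of 2 WT and 2 *Bmal1* KO mouse ESC libraries was sequenced by the authors, who used TopHat 2.1.1 with Bowtie2 2.3.0 for alignment (build GRCm38) and deposited FPKM values made with Cufflinks 2.2.1 (tools and versions from the submitters' processing notes). Strand setting and read numbers were not given in the sources used here, so depth is unknown and no counting interval is given. Groups came from the sample labels. Rows were matched to genes by symbol, with merged symbols split, and positions were taken from GENCODE M21 (GRCm38). The values were tested with limma 3.58.1 (R 4.3.3) on log2(FPKM + 0.1) with a variance trend, for features with a mean of at least 0.5 FPKM, so fold changes of low genes are understated. P-values were adjusted by Benjamini-Hochberg over all tested features, and a call over 2-fold follows the study's rule. The test was checked on simulated data. The members and lists were chosen with earlier results of these data known. Named were the 10 enzymes, genes of the wider list that passed with over 2-fold change, the 4 largest other rises and falls with separated groups, *Arntl*, *Pou5f1* and *Nanog*; any other gene was named after its values were seen. *Sds*, *Postn* and *Lum* were not analysed here. Alternatives were other pseudocounts, filters, scalings, summing by symbol, no variance trend, a replicate block and leaving out each library. With a library left out, the lone sample was assumed to vary like the other group.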

Additional observations from a re-analysis of the deposited data

How the results depend on the processing

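Of 140 counts computed under 14 alternatives, 109 stayed within 1.5 times their reported value and 31 did not. With no filter on low values 571 features rose and 380 fell, 1 of the 10 enzymes fell and 1 gene of the wider list passed 2-fold. Without a variance trend 457 features fell, with 0 of the 10 enzymes and 1 gene of the wider list among them, and 1 gene of that list passed 2-fold. A pseudocount of 1 left 146 features higher and 85 lower past 2-fold, and 1 gene of the wider list. Quantile normalization gave 1 enzyme that rose and 0 that fell. Rescaling to features with a symbol gave 1 enzyme that fell, and 5 genes of the wider list that rose and 1 past 2-fold. Leaving out 1 library gave 0 to 1 enzymes that fell, 3 to 5 genes of the wider list that fell, 1 to 2 genes of that list past 2-fold in either direction and 257 to 323 features lower past 2-fold. The cause was not tested. The log2 fold change of *Shmt2* turned to 0.00 with quantile normalization and ranged from -0.19 to 0.03 with 1 library left out (0.01 without KO replicate 2 and 0.03 without WT replicate 1), and that of *Phgdh* then ranged from -0.10 to 0.12 (-0.10 without KO replicate 1 and -0.06 without WT replicate 2). With the replicate number as a block, 1807 features rose and 2245 fell, 1 enzyme rose (*Tdh*, adjusted p = 0.0238 from limma) and 4 fell (*Psat1*, *Gldc*, *Gcat* and *Psph*), and 5 genes of the wider list rose and 16 fell. The labels do not say that a number marks shared handling, and the replicate differences of WT and KO correlated across 12990 features at Pearson's r of 0.071 and Spearman's rho of 0.387, over genes that are not independent. With 2 pairs this does not settle whether the numbers pair the samples. The scalings moved the median log2 fold change of all tested features from -0.02 to at most 0.05. With 2 libraries a group and unknown depth, changes of the 8 enzymes that missed the threshold are limited only by their intervals.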
